A study of Homo sapiens with 6 samples.

Results

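The hypoxia factors HIF1A and EPAS1 and 8 genes known to be induced by low oxygen (VEGFA, VEGFC, CA9, CA12, NDRG1, ADM, ANGPTL4 and EGLN3) were followed in a pair of breast cancer lines. All array spots with one of these 10 gene names were taken, controls excluded, which gave 12 probes among 34127 probes for 25940 gene names. HIF1A and VEGFA had 2 probes each. All 12 probes passed the filter on dim signals, as did 23105 probes for 17670 genes of the whole array.

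Both lines came from T47Dco, a variant of the estrogen receptor positive human breast cancer line T47D, grown as tumors in ovariectomized immunodeficient NSG mice. pLUM (pure luminal) cells were sorted as CLD3+CD49f- from a tumor grown with estradiol (E) and were treated with 1 nM E for 72 h. pLB (pure luminobasal) cells were sorted as CLD3-CD49f+ from a tumor grown with E plus progesterone and were kept estrogen withdrawn (EWD). RNA of 3 sorts of each line was compared, on 3 pLUM and 3 pLB arrays. Line, tumor of origin and hormone therefore coincided and cannot be told apart, and p-values measure the spread between arrays of the same line. In pLB this spread includes any between 2 slides, since replicate 1 shared the slide of pLUM and replicates 2 and 3 did not. The labels give neither the oxygen level of the cultures nor which fraction of the sort on cytokeratin 5 was hybridized.

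Cells sense oxygen through prolyl hydroxylases, which mark the alpha subunits of hypoxia-inducible factors for destruction by the VHL ubiquitin ligase. When oxygen is low the alpha subunits HIF-1alpha (HIF1A) and HIF-2alpha (EPAS1) persist, pair with ARNT and bind a short core motif near their target genes. Control of HIF1A is thus largely at the protein, which an expression array does not measure.

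Promoter sequences for 8 of the 10 genes (all but VEGFA and NDRG1) were read from the table of RefSeq promoters used here (GRCh38.p14), as windows of 250 bases before and 50 after the annotated start. The core motif was searched as ACGTG or GCGTG on both strands (CACGT or CACGC when read on the gene strand). It was found for 7 of those 8 genes, beside 52.4% of all 27305 genes in the table (48.4% of its 35116 promoters), so that a match is common and is given as a description only. HIF1A had 2 promoters, of which 1 held the motif. The 250 bases before the start are shown 5′ to 3′ on the gene strand for the genes with the motif that stood furthest apart between the lines, for CA12 as a gene with the motif that was not higher in pLB, and for EGLN3, in whose window these letters were not found. Capitals mark the motif.
CA9 promoter, chr9:35673678-35673927, plus strand: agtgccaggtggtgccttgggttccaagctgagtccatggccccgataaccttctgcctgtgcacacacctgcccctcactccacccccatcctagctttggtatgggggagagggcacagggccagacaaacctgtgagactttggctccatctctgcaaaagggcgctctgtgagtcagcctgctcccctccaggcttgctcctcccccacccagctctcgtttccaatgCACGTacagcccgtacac
ADM promoter, chr11:10304823-10305072, plus strand: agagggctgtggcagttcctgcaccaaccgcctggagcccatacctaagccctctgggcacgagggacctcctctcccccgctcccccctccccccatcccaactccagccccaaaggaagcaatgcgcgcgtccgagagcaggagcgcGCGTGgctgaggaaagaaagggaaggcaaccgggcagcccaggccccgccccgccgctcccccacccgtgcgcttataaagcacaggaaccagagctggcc
VEGFC promoter, chr4:176792923-176793172, minus strand: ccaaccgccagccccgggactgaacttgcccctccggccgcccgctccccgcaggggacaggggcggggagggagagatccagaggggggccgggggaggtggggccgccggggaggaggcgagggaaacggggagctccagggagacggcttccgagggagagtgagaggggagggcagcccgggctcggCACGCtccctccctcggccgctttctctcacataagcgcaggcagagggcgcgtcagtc
ANGPTL4 promoter, chr19:8363905-8364154, plus strand: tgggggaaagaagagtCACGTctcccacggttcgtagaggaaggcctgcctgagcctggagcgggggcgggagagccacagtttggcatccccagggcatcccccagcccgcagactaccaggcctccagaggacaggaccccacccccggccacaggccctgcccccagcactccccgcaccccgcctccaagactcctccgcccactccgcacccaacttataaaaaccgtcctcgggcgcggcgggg
CA12 promoter, chr15:63381847-63382096, minus strand: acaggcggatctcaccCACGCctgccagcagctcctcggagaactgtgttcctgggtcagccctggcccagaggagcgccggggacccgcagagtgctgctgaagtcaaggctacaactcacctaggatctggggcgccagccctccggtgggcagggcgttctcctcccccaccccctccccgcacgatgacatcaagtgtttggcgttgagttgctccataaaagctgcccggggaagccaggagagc
EGLN3 promoter, chr14:33951075-33951324, minus strand: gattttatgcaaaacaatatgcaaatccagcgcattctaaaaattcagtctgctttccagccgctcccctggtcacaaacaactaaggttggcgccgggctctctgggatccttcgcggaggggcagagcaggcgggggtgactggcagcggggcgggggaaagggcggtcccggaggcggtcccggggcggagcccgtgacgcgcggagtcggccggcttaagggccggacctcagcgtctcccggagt
The motif began 18 bases before the start of CA9, 101 before that of ADM, 59 before that of VEGFC, 234 before those of ANGPTL4 and CA12, and 117 before that of EPAS1. CA12 held another at base 40 of the transcript.

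**Figure D1:**
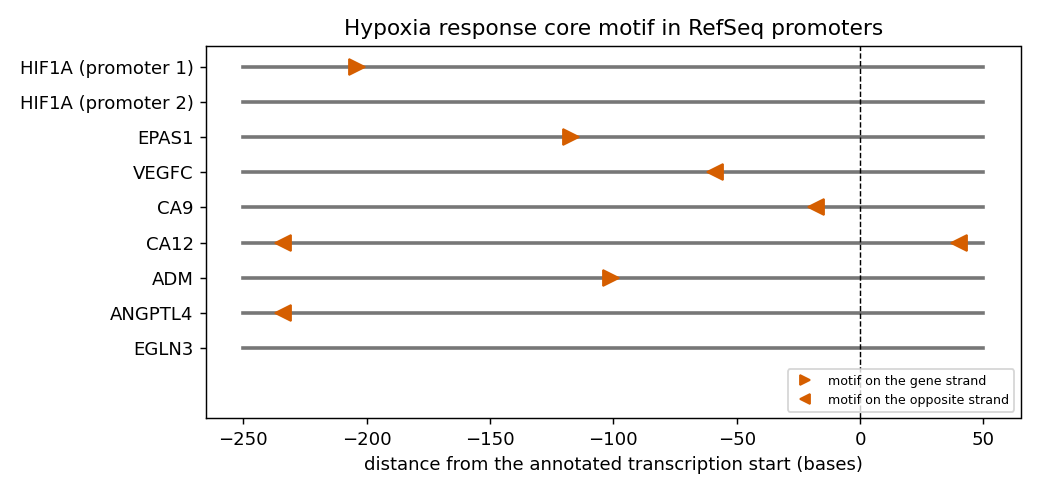
Position of the hypoxia response core motif in 9 promoters of 8 genes. The x axis is the distance in bases from the annotated transcription start (dashed line), each grey line is a window of 300 bases, and arrowheads show the motif and its strand. EGLN3 and the second HIF1A promoter carried none.

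What each probe could see is fixed by its 60 bases. Shown are 3 member probes whose bases encode protein. CA9 had a single probe, and the probes of HIF1A gave unlike results. Both VEGFA probes had a lower mean in pLB, with overlap between the lines at the brighter probe only. Positions are those of the array files (hg19).
CA9 probe A_23_P157793, chr9:35677817-35679204, plus strand: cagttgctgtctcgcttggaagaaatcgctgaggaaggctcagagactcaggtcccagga
HIF1A probe A_33_P3231277, chr14:62211472-62211531, plus strand: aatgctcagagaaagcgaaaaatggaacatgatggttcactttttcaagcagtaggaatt
VEGFA probe A_23_P70398, chr6:43746223-43746634, plus strand: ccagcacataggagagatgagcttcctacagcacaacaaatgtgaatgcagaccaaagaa
The CA9 bases spread over 1388 bases of the genome and those of VEGFA over 412, so each of these probes crosses a splice junction. The other HIF1A probe, A_24_P56388 at chr14:62214845-62214904, and the other VEGFA probe, A_24_P12401 at chr6:43753511-43753570, lie further downstream on the plus strand.

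Of the 10 genes, 7 were higher in pLB, none was lower and 3 did not pass the test. A call needed a fitted difference of at least 2-fold and a Benjamini-Hochberg adjusted p under 0.05 over all genes in limma, a linear model that shares information on spread across genes. Of all genes tested, 22.7% were called higher in pLB and 23.0% lower. The median log2 difference (pLB minus pLUM) was 3.03 over the 10 genes and 0.04 over all 17670. Values below are log2 intensities minus the 75th percentile of the same array, and a level of one probe cannot be set against that of another. In such bulk samples, fewer cells of a type and less RNA per cell cannot be told apart. The pLB arrays all lay above the pLUM arrays for 7 genes and all below for 1, the values of the other two overlapped, and 69.1% of all genes did not overlap.

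**Figure D2:**
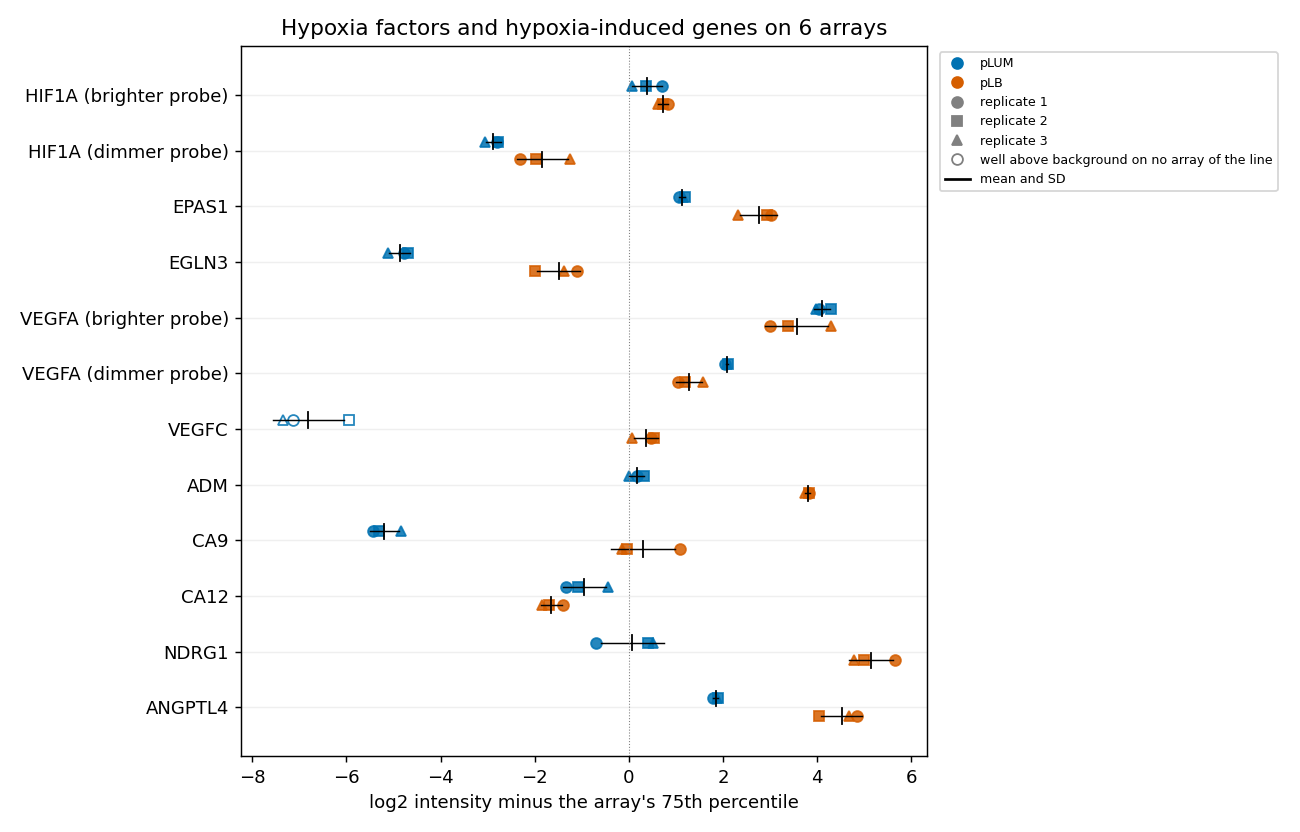
Level of each probe on each array. The x axis is log2 intensity minus the 75th percentile of the array, blue marks are pLUM and orange pLB, marker shape gives the replicate, black lines give mean and SD (n = 3), and open marks show a probe well above background on no array of that line. The lines stood apart for VEGFC, CA9, NDRG1, ADM, EGLN3, ANGPTL4 and EPAS1, and overlapped for the brighter probes of HIF1A and VEGFA.

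Of the factors themselves, EPAS1 was higher in pLB and HIF1A did not pass the test. EPAS1 (probe A_23_P210210, chr2:46613666-46613725) measured 1.06, 1.19 and 1.16 in pLUM and 3.03, 2.94 and 2.31 in pLB. Every pLB array was above every pLUM array, with pLB replicate 3 the lowest of its line. The difference was 3.09-fold (log2 1.63 ± 0.22, SE; limma adjusted p = 0.00051).

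HIF1A at its brighter probe measured 0.71, 0.36 and 0.08 in pLUM and 0.84, 0.74 and 0.61 in pLB. The ranges overlapped, since pLUM replicate 1 lay above pLB replicate 3. The difference was log2 0.35 ± 0.20 (SE; limma adjusted p = 0.17).

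The dimmer HIF1A probe, in the coding sequence shown above, measured -2.80, -2.77 and -3.06 in pLUM and -2.30, -1.98 and -1.24 in pLB. All 3 pLB values were the higher, and they were more spread (SD 0.55) than those of pLUM (SD 0.16). The difference of 2.05-fold (log2 1.04 ± 0.28, SE; limma adjusted p = 0.015 over all probes) passed the test narrowly. It fell below 2-fold without pLB replicate 3 (log2 0.74), lost its adjusted p without pLUM replicate 3 (0.053), and was log2 0.42 with another background correction and 0.57 with slide as a block. Over probes, 8 of the 12 were called higher and none lower, beside 21.9% and 23.7% of all probes.

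EGLN3 (probe A_33_P3256952, chr14:34393422-34393481) encodes PHD3, one of the prolyl hydroxylases and itself a target of the pathway. It measured -4.78, -4.70 and -5.12 in pLUM and -1.10, -1.996 and -1.37 in pLB. No values came near each other, and the difference was 10.4-fold (log2 3.38 ± 0.26, SE; limma adjusted p = 3.3e-05). With normexp background correction, which compresses dim signals, it was log2 1.27 and still called.

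Of the vessel growth factors, VEGFC was higher in pLB and VEGFA was not called. VEGFC (probe A_23_P167096, chr4:177604823-177604882), the main growth factor of lymphatic vessels, stayed near background in all of pLUM (-7.13, -5.94 and -7.35, none flagged as well above it) and measured 0.46, 0.54 and 0.07 in pLB. Only a bound can therefore be given, and VEGFC was at least 53.3-fold higher in pLB. The probe passed the filter on dim signals through its pLB arrays alone, so no p-value is given. The bound rests on the background correction of the files: with normexp background correction the VEGFC difference was log2 2.92.

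VEGFA, the chief growth factor of blood vessels and the textbook target of HIF-1, was not higher in pLB at either probe. The brighter, across a splice junction, measured 4.05, 4.30 and 3.98 in pLUM and 3.001, 3.39 and 4.30 in pLB. The pLB arrays ran from below every pLUM array to level with the highest of them. The difference was log2 -0.54 ± 0.33 (SE; limma adjusted p = 0.19).

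The second VEGFA probe measured 2.05, 2.11 and 2.09 in pLUM and 1.04, 1.20 and 1.58 in pLB. All pLB values were the lower, by 1.75-fold (log2 -0.81 ± 0.19, SE; limma adjusted p = 0.0071), which is under the 2-fold threshold. The 3 pLUM arrays and pLB replicate 1 shared a slide, and pLB replicates 2 and 3 lay on another. With slide as a block, which rests the difference on pLB replicate 1, VEGFA was called lower at both probes (log2 -1.11, limma adjusted p = 0.043, and log2 -1.04, limma adjusted p = 0.013).

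ADM (probe A_23_P127948, chr11:10328780-10328839) encodes adrenomedullin, a vasodilator peptide. It measured 0.16, 0.33 and 0.01 in pLUM and 3.82, 3.83 and 3.73 in pLB. Its arrays were the tightest of the 10 genes in pLB (SD 0.05), and the 12.4-fold difference (log2 3.63 ± 0.15, SE) had the lowest limma adjusted p among them, 2.3e-06.

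The carbonic anhydrases at the cell surface, which hydrate carbon dioxide outside the cell, gave 1 call. CA9 measured -5.43, -5.30 and -4.84 in pLUM, where its signal was well above background on 2 arrays, and 1.09, -0.04 and -0.15 in pLB. All pLB arrays were far above, and replicate 1 was the highest. The fitted difference was 45.1-fold (log2 5.49 ± 0.35, SE; limma adjusted p = 1.5e-05). It was log2 2.95 with normexp background correction and 6.29 with slide as a block.

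CA12 (probe A_24_P330518, chr15:63616499-63616558), also known as a target of the estrogen receptor, measured -1.33, -1.07 and -0.44 in pLUM and -1.41, -1.69 and -1.84 in pLB. The highest pLB array lay 0.08 below the lowest pLUM array. The difference was 1.63-fold lower in pLB (log2 -0.70 ± 0.26, SE; limma adjusted p = 0.047) and so was not called.

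NDRG1 (probe A_23_P20494, chr8:134249719-134249778), a stress response gene, measured -0.69, 0.41 and 0.51 in pLUM and 5.66, 5.00 and 4.78 in pLB. The lowest pLB array lay 4.27 log2 units above the highest pLUM array, and pLUM replicate 1 was the lowest of its line. The difference was 33.6-fold (log2 5.07 ± 0.38, SE; limma adjusted p = 2.9e-05).

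ANGPTL4 (probe A_33_P3295358, chr19:8439197-8439256), a secreted inhibitor of lipoprotein lipase, measured 1.79, 1.89 and 1.87 in pLUM and 4.85, 4.04 and 4.68 in pLB. All pLB arrays were the higher, by 6.39-fold (log2 2.68 ± 0.23, SE; limma adjusted p = 6e-05). By size of fitted difference the 7 genes called higher ran VEGFC, CA9, NDRG1, ADM, EGLN3, ANGPTL4 and EPAS1, but with normexp background correction they ran NDRG1, ADM, CA9, VEGFC, ANGPTL4, EPAS1 and EGLN3. Neighbours in either order were not tested against each other.

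**Figure D3:**
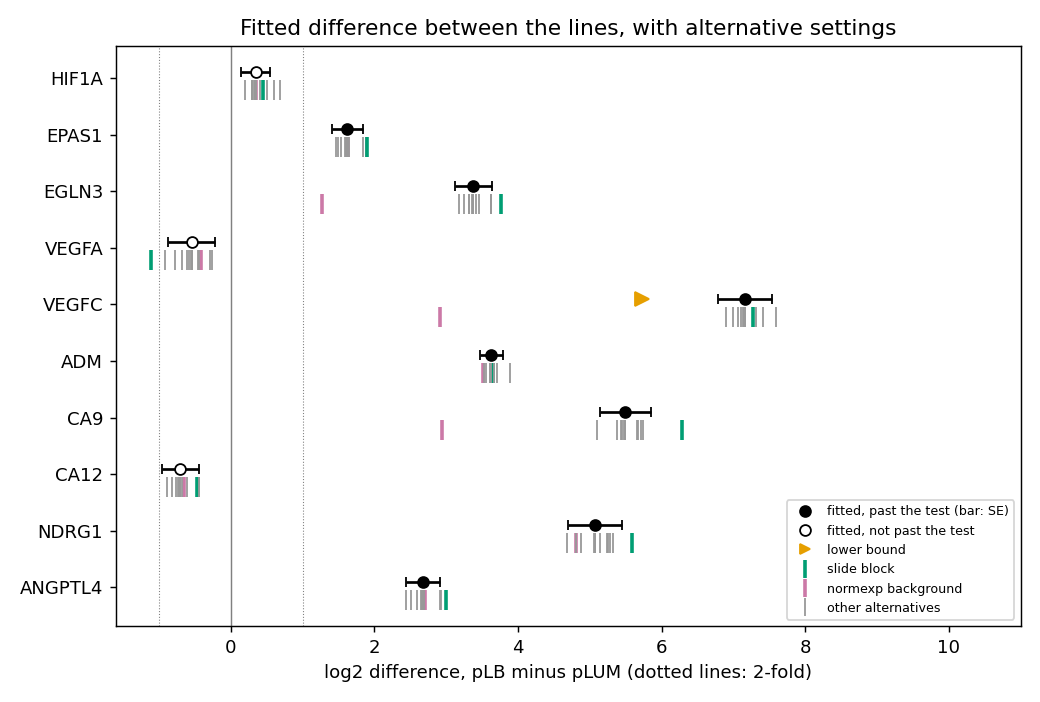
Fitted difference between the lines for each gene at its brighter probe. The x axis is log2 pLB minus pLUM, circles with bars are the fit and its SE (filled where past the test), the orange arrowhead is the lower bound for VEGFC, and ticks are the same difference under other settings. The 7 genes called higher stayed at 1.27 or more under every setting that gave a value, and VEGFA ran from -1.11 to -0.26.

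The partners and regulators of the factors showed no common direction. Of the other HIF subunits, ARNT2 (log2 1.11 ± 0.20, SE; limma adjusted p = 0.0022) and HIF3A (log2 1.80 ± 0.28, SE; limma adjusted p = 0.001) were higher in pLB, and ARNT, the partner of both alpha subunits, was not called (log2 -0.35 ± 0.23, SE). A second HIF3A probe gave log2 0.45 and was not called. Of 11 genes of oxygen sensing and HIF turnover, 2 were higher, 3 lower and 6 not called, with a median log2 difference of -0.39. These shares are near the 22.7% and 23.0% of all genes called higher and lower.

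Within that list the prolyl hydroxylases were called in both directions. EGLN1, the main oxygen sensor of the family, measured -0.49, -0.16 and -0.54 in pLUM and 1.54, 1.05 and 1.24 in pLB, a 3.19-fold difference (limma adjusted p = 0.00025). EGLN2 measured 0.07, 0.51 and 0.75 in pLUM and -1.08, -0.91 and -1.38 in pLB, 2.96-fold lower (limma adjusted p = 0.00076). Together with EGLN3, 2 of the 3 EGLN genes were thus higher in pLB and 1 lower, beside 22.7% and 23.0% of all genes. None of the 3 overlapped between lines, which held for 69.1% of all genes.

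ELOC, a subunit of the VHL ligase, was higher (log2 1.62 ± 0.16, SE). Its partners ELOB (-0.15), CUL2 (-0.39) and RBX1 (0.08) were not called. VHL itself gave log2 -1.04 ± 0.45 (SE), with a limma adjusted p of 0.078. CITED2, which competes with HIF for a coactivator, was lower at its brighter probe (log2 -1.09 ± 0.24, SE). Its dimmer probe gave -0.15 and was not called. SIAH2, a ligase that acts on the hydroxylases, was lower (log2 -1.07 ± 0.18, SE). SIAH1 (-0.46) and the asparagine hydroxylase HIF1AN (0.39) were not called.

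Partner ligands and receptors were examined beside VEGFA, VEGFC and ADM. The neuropilins, coreceptors of VEGF ligands, were not well above background anywhere in pLUM and were higher in pLB. At their brightest probes the lower bounds were 37.5-fold for NRP1 and 16.1-fold for NRP2. At their other probes the bounds were smaller, 2.97- and 5.94-fold for NRP1 and 2.66- and 4.41-fold for NRP2. PGF, a ligand related to VEGFA, was 37.0-fold higher (log2 5.21 ± 0.28, SE) and had a pLUM signal well above background on 2 arrays. A dimmer PGF probe, not well above background in pLUM, gave a lower bound of 1.93-fold. VEGFB (log2 0.92) and FLT4, the receptor of VEGFC (log2 -0.65), stayed under 2-fold. FLT1, KDR and VEGFD were not well above background on any array.

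For ADM, the receptor CALCRL was at least 1.65-fold higher in pLB at 1 probe, which was not well above background in pLUM. That probe passed the filter on dim signals through its pLB arrays alone. The other CALCRL probes were not well above background on any array. RAMP2 and RAMP3, the proteins that make CALCRL an adrenomedullin receptor, were not well above background on any array.

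Relatives of CA9, CA12, NDRG1 and ANGPTL4 showed no common direction. Of 22 relatives, 13 were tested, of which 4 were higher in pLB, 4 lower and 5 not called, with a median log2 difference of -0.26, beside the 22.7% and 23.0% of all genes called higher and lower. Higher were CA10 (at least 25.3-fold), CA13 (log2 4.61), NDRG4 (2.49) and CA11 (1.79). In pLUM, CA13 was well above background on only 1 array. Lower were CA8 (at least 42.1-fold), CA5B (log2 -3.24), ANGPTL1 (at least 1.83-fold) and CA5A (log2 -1.15).

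Among 35 other genes commonly induced by hypoxia, 34 were tested, and 24 were higher in pLB, 3 lower and 7 not called. Beside the 22.7% and 23.0% of all genes called, and the median of 0.04 over all genes, the median log2 difference of these 34 was 1.79, or 1.74 with dim genes at their bound. Among the highest was LOX, which cross-links collagen (at least 27.0-fold). Others were TMEM45A (log2 3.84 ± 0.32, SE), the repressor BHLHE41 (3.60 ± 0.23) and the glucose transporter SLC2A1 (3.57 ± 0.20). Limma adjusted p-values of TMEM45A, BHLHE41 and SLC2A1 were between 8.5e-06 and 4.7e-05.

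SLC2A1 measured -0.19, 0.01 and 0.03 in pLUM and 3.84, 3.54 and 3.19 in pLB, with no overlap, while a second, dim SLC2A1 probe gave log2 0.34 and was not called. The 3 genes lower in pLB were BHLHE40, KDM4B and HILPDA. BHLHE40, the paralog of BHLHE41, gave log2 -1.67 ± 0.17 (SE). The histone demethylase KDM4B gave -1.65 ± 0.19, and HILPDA, a lipid droplet protein, -1.03 ± 0.17.

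Roles were assigned within this list after the values were seen, so counts by role are a description only. They stand beside the 22.7% and 23.0% of all genes called higher and lower. Of 11 genes of glucose uptake, glycolysis and pyruvate use tested, 10 were higher, from 3.05-fold (PDK1) to 11.9-fold (SLC2A1), and PFKFB4 was not called (log2 0.64). Of 5 genes of collagen modification, 4 were higher and PLOD2 was not called (-0.51). BNIP3 and FAM162A were higher among 3 genes of mitophagy and cell death (log2 2.41 and 2.56), and BNIP3L was not called (0.49). Of 5 genes of transcription and chromatin, BHLHE41, KDM3A and MXI1 were higher and BHLHE40 and KDM4B lower. Dimmer MXI1 probes gave log2 0.82 and -0.38 and were not called. The remaining 10 genes held 5 higher, 1 lower and 4 not called. Of 31 listed genes with a promoter in the table, 29 held the core motif in at least 1 promoter, beside 52.4% of all genes there, and this was not tested.

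**Figure D4:**
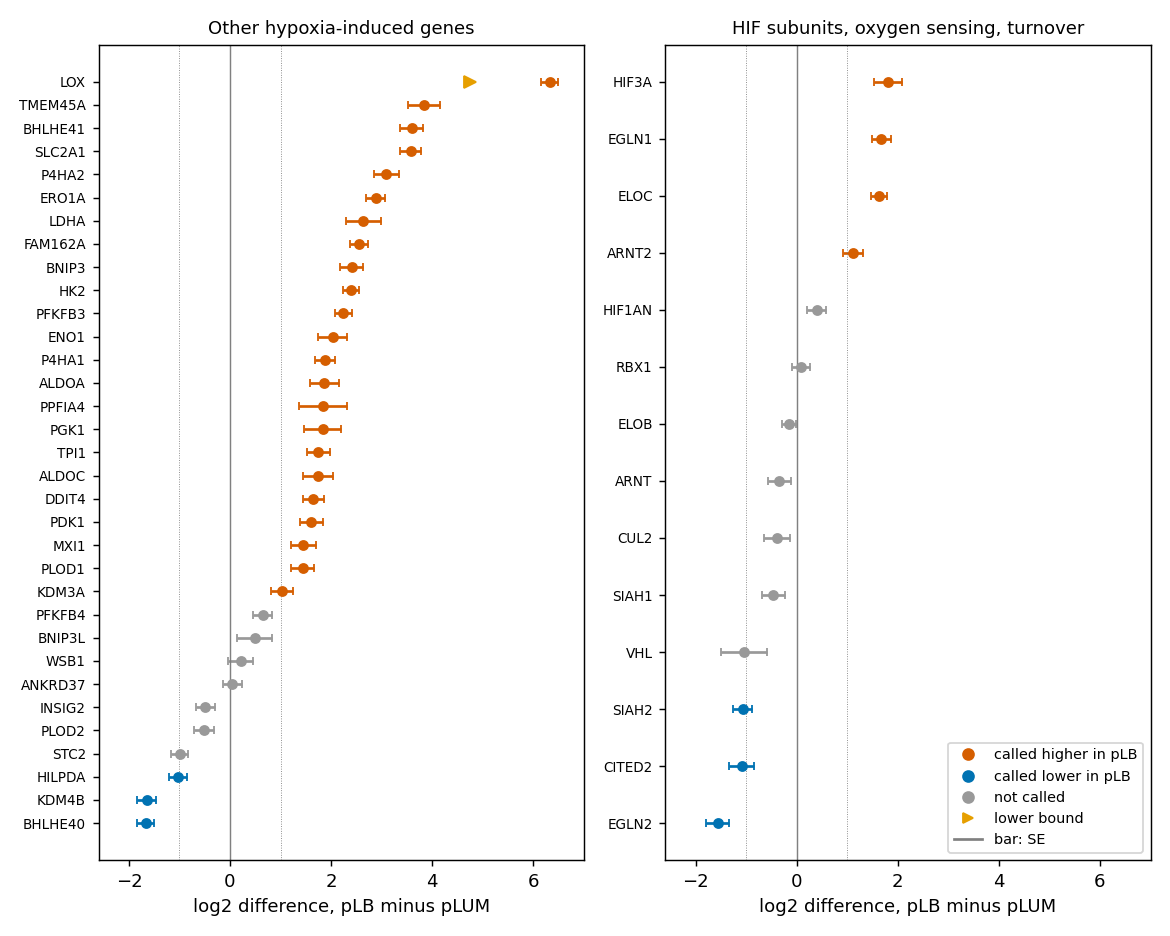
Fitted difference for other hypoxia-induced genes (left) and for HIF subunits and genes of oxygen sensing and turnover (right). The x axes are log2 pLB minus pLUM, bars are SE, colors give the call and arrowheads give lower bounds. On the left 23 of the 33 genes drawn were called higher, and on the right calls lay on both sides of 0.

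The median SD between arrays of a line over all probes was 0.21 in pLUM and 0.29 in pLB, whose arrays lay on 2 slides. Some genes were more spread. The brighter VEGFA probe had an SD of 0.67 in pLB beside a difference of log2 -0.54. VHL had SDs of 0.71 in pLUM and 0.68 in pLB beside log2 -1.04. The 75th percentile lay between 449 and 869 intensity units per array, no gene spot was saturated, and 21285 to 22775 probes per array were well above background. Markers by which the paper sorted or described the lines went the labelled way, 4 of 4 in each case. KRT5, ITGA6, EGFR and TP63 were higher in pLB, and CLDN3, ESR1, PGR and GATA3 were higher in pLUM. Since these genes were chosen for that difference, they are no independent check of the labels. Of 8 markers of endothelial cells, leukocytes and fibroblasts, PECAM1, COL3A1 and DCN were not well above background on any array, CD68 (log2 1.52) and VWF (at least 1.80-fold) were higher in pLB and 3 were not called. The summed level of the 8, relative to the 75th percentile, was 1.05 to 1.13 in pLUM and 0.677 to 1.33 in pLB, and their part in the results was not tested.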

How the data were processed

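The authors deposited 1 Agilent Feature Extraction 10.10.1.1 output per 1-color (Cy3) array, with a linear intensity for each spot, corrected for background within the array, and flags for outliers, saturation and signal well above background. Values were not normalized between arrays, and gene names and positions (hg19) are those of the files.

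From these, control and outlier spots were left out, log2 intensities were set against the 75th percentile of their own array, and spots of a probe were averaged. A probe counted as well above background on an array if at least 50% of its spots were, and was tested if this held on 3 or more arrays. Each gene was represented by its tested probe with the highest mean. pLB was compared with pLUM by limma 3.58.1 (lmFit, eBayes; R 4.3.3) with Benjamini-Hochberg adjustment, calls needing 2-fold and an adjusted p under 0.05. The number of arrays limits the precision. Where no array of a line had a signal well above background, the fold is a lower bound against the lowest signal well above background on each array, or the probe's own signal if higher. Every such bound rests on the background correction of the files. Genes given a bound passed the filter through the other line alone, so no p-value is printed for them.

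Members and gene lists were chosen with earlier results of these data known. Named are all members, all genes of lists of up to 11 genes and, of longer lists, the 5 largest differences in each direction among called genes that were well above background throughout a line, and genes named by role beyond these were chosen after their values were seen. Of the other hypoxia-induced genes, 1 is counted but not reported here by name or in the plots. Tested on simulated data for this comparison over 23105 probes, the fit recovered 77 of 100 changes of 3-fold and 99 of 100 of 8-fold, with 8 false calls. Alternatives were another background correction, other scalings, filters, thresholds and probe rules, the methods' t-test, replicate and slide blocks, and leaving out each array.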

Additional observations from a re-analysis of the deposited data

How the results depend on the processing

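EPAS1, VEGFC, CA9, NDRG1, ADM, ANGPTL4 and EGLN3 were called higher in pLB under every alternative that gave them a value. VEGFC and CA9 had no value where signals well above background were required on all 6 arrays, which left 5 member genes called. VEGFC passed the filter on dim signals through its pLB arrays alone, so its calls add no support. The count of member genes lower in pLB went from 0 to 1 with no fold threshold (CA12, log2 -0.70) and to 1 with slide as a block (VEGFA, log2 -1.11), and that of member probes from 0 to 2 under both, with the second VEGFA probe at -0.81 and -1.04. The dimmer HIF1A probe lost its call under 5 alternatives, where it lay between log2 0.42 and 1.04. Leaving out each array in turn gave VEGFA between -0.91 and -0.26, CA12 between -0.89 and -0.45, and CA9 between 5.10 and 5.72. Other hypoxia-induced genes called higher numbered 22 to 25 and lower 2 to 4. The shares of all genes called under the alternatives are not given here, so these counts show only the change from the main setting. Spike-in scaling moved the median difference of all genes by 0.25 and normexp background correction by -0.24, with no change of direction among the members. Same-numbered replicates did not deviate together (correlations -0.27, -0.09 and -0.22), so numbers were not taken as pairs, and with a replicate block 7 member genes were higher and 0 lower. The cause was not tested. Dim signals limit VEGFC, CA9 and EGLN3, whose differences were log2 2.92, 2.95 and 1.27 with normexp.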
